A study of Mus musculus with 4 samples.

Results

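EGFP-positive cells of the trachea were set against EGFP-positive cells of the stomach, both sorted from C57BL/6 mice that carried the transgene Tas2r143-CreERT2 together with the reporter allele Rosa26flox-mT-stop-flox-mG. In this line a bacterial artificial chromosome drives the tamoxifen-dependent recombinase CreERT2 from the Tas2r143 promoter, and recombination switches the Rosa26 reporter from membrane Tomato to membrane EGFP for good, so EGFP marks cells whose promoter was active while tamoxifen was present. All mice received tamoxifen for 5 days and were analysed 5 days after the last injection, so every library carries the transgene, the reporter and the treatment. Age and sex of the mice are not given in the sources used here. The EGFP sort took live EGFP-positive cells without a gate on the epithelial surface protein EpCAM, whereas the Tomato sort of the same tissues, used here as background, was restricted to EpCAM-positive cells. By the paper's stainings, EGFP marked most tracheal cells with the tuft cell protein DCLK1 but only a minority of those in stomach corpus. The paper places gastric EGFP cells mainly in the gastric groove and the corpus nearby. The gastric side is thus a regional subset and not all gastric tuft cells. Tuft cells without EGFP can fall in the Tomato sort, above all in stomach, and their part in Tomato values was not tested. Tracheas were digested with dispase and then trypsin, and stomachs with Liberase and then trypsin, so that tissue and digestion cannot be told apart. Cells of 3 mice were pooled for each sort and tissue, which leaves 1 library a side and no replicate. No test between the tissues was possible and no p-value is given. A gene was instead called higher on 1 side by size alone, when log2((trachea + 1)/(stomach + 1)) was 2 or more in either direction, a difference of 4-fold.

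The comparison held 10144 genes, those at 50 normalized counts or more in either EGFP library out of 48587 gene symbols, after immunoglobulin gene segments and Jchain had been left out. A normalized count is a read count per gene divided by the authors by a factor for each library. The files do not hold the raw reads, and the worth of 1 read was estimated from the spacing of low values, at 1.61 normalized counts in the tracheal and 0.7865 in the gastric EGFP library. On that estimate the tracheal EGFP library held 6.2 M reads in genes and the gastric one 17.3 M, against 18.4 M and 18.9 M in the tracheal and gastric Tomato libraries, so that low values are least certain in the tracheal EGFP library. A gene listed at 0 was treated as below a chosen detection limit of 3 reads and not as absent. That limit is 4.83 normalized counts in the tracheal and 2.36 in the gastric EGFP library. No fold is given for a gene listed at 0. Ratios of single genes carry an exact binomial 95% interval on the estimated reads, and these intervals cover counting error only. Reads amplified by PCR without molecular identifiers are not independent molecules, and the spread between mice is unknown.

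The titles and the tissue fields of the labels name opposite tissues for all 4 libraries, and the titles were followed here. The libraries titled trachea held the secretory genes of airway club cells, with Scgb1a1 at 59071 in the Tomato and 5753 in the EGFP library titled trachea and at 0 and 1 in those titled stomach. The libraries titled stomach held Pgc, the pepsinogen of gastric chief cells, at 992416 in the Tomato and 39704 in the EGFP library, against 2 and 10 in those titled trachea. Not every gene of these marker lists went this way. Of 9 club cell genes compared, 7 were higher in the EGFP library titled trachea and 2 in that titled stomach. For 6 chief cell genes the numbers were 1 and 5. Bpifb1, of the club cell list, was at 7771 (Tomato) and 451 (EGFP) under trachea and 45309 and 5489 under stomach. Lipf, of the chief cell list, was at 53408 and 924 under trachea and at 0 under stomach. Both EGFP libraries held tuft cell genes. The 15 genes of the tuft cell list summed to 10500 normalized CPM (normalized counts per 1000000 of the library) in the tracheal and 9498 in the gastric EGFP library, against 241.5 and 537.4 in the respective Tomato libraries. The list includes the 5 markers given for this comparison (Tas2r108, Sucnr1, Unc5d, Gfi1b and Siglecf), so its sums are not independent of it. Each of the other genes of the list exceeded Tomato by 4-fold or more in both tissues.

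Tuft cells, called brush cells in the airway, are rare chemosensory epithelial cells that depend on the POU-domain factor Pou2f3. They detect bitter compounds, succinate and other metabolites through G-protein-coupled receptors, and they carry the signalling chain of taste cells from gustducin through phospholipase C and the IP3 receptor to the cation channel Trpm5. Their known outputs are acetylcholine, the cytokine Il25 and lipid mediators such as cysteinyl leukotrienes and prostaglandin D2. Airway tuft cells are best known for bitter sensing and cholinergic reflexes, and gut tuft cells for type 2 immunity.

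Shown first are genes of the chemosensory chain that were higher in tracheal EGFP cells and whose promoter window held the octamer ATGCAAAT. This is the DNA element that POU-domain factors of the Pou2f family bind. All taste receptors at the minimum were called to 1 side. Most of them reached the minimum through trachea only, so this direction was largely set by that rule. The windows were taken from RefSeq promoters of build GRCm38.p6, which run from 250 bases before to 50 bases after the gene start, and the octamer was searched on both strands, where it reads ATGCAAAT or ATTTGCAT. Each line shows the octamer in capitals with 30 bases on either side, read 5′ to 3′ on the strand of the gene.
Tas2r108 (chr6:40493416-40493483, plus strand, 146 bases before the start): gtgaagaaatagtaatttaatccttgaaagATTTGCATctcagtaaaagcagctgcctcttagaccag
Tas2r118 (chr6:23970147-23970214, minus strand, 124 bases before the start): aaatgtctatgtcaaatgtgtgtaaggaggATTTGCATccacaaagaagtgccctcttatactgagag
Tas2r126 (chr6:42434311-42434378, plus strand, 194 bases before the start): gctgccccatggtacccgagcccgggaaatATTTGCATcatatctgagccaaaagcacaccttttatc
Tas2r135 (chr6:42405356-42405423, plus strand, 143 bases before the start): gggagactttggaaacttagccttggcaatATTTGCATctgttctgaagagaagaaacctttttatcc
Sucnr1 (chr3:60081791-60081858, plus strand, 48 bases before the start): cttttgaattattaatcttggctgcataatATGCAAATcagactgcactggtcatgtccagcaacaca
Rgs21 (chr1:144567830-144567897, minus strand, 200 bases before the start): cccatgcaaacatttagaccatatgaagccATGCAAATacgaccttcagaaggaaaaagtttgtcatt
The octamer stood in 4 of the 9 taste receptors with a RefSeq promoter that reached the minimum, in 3 of the 25 that did not, and in 1.82% of all 22862 promoters. The minimum divides the receptors largely by their level in trachea, and nothing is read from these shares. It stood in 2.27% of the promoters of genes that were higher in trachea and also 4-fold over tracheal Tomato, and in 2.39% of those higher in stomach and 4-fold over gastric Tomato. None of the 9 tuft lineage factors with a promoter held it, and Itpr3, which is not shown because it did not pass the 4-fold rule, was the other taste transduction gene besides Rgs21 that did. The octamer was not particular to genes higher in trachea. The promoters of Hpgds and Habp2, both higher in stomach, held it, and those of Gfi1b and Siglecf, also higher in stomach, did not. Those of Unc5d, Gnb3 and Pou2f3 were not analysed here. Letters bound by other factors were searched as well and are not reported here. Such a match describes the letters of a window and not a site of binding.

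Of the 10144 genes, 2046 (20.2%) were higher in tracheal EGFP cells, 2737 (27.0%) were higher in gastric EGFP cells and 5361 were neither. The counts given below for each gene list stand against these shares. The values of 3297 genes (32.5%) lay within 2-fold of each other. Much of the difference was between a value and a listed 0. The gastric library was at 0 for 533 (26.1%) of the genes higher in trachea, and the shallower tracheal library was at 0 for 1288 (47.1%) of those higher in stomach. Without such genes the counts were 1513 and 1449, so the direction in which more genes were called depended on them. Among the 6203 genes at 50 or more in both libraries, 661 were higher in trachea and 546 in stomach, the median log2 difference was 0.09, and the levels had a Spearman rho of 0.59 across genes, which are not independent replicates. Low genes were called most often. Where the higher value was from 50 to 200, 22.6% were higher in trachea and 41.6% in stomach, whereas at 5000 or more the shares were 9.15% and 15.3%.

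**Figure D1:**
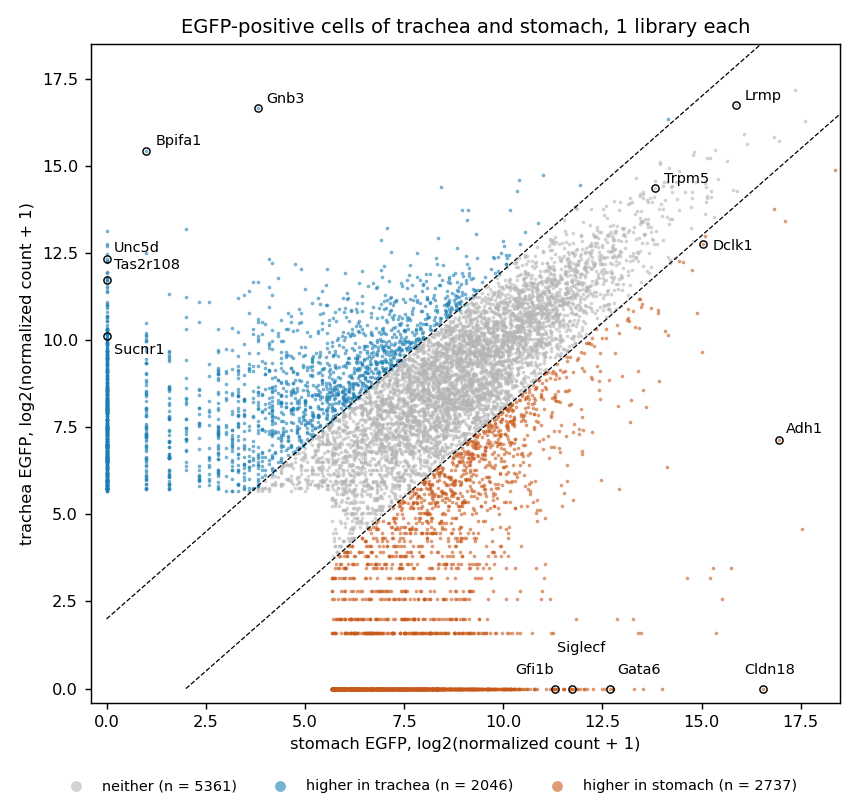
Level of each of the 10144 genes in the gastric (x axis) and tracheal (y axis) EGFP library, as log2(normalized count + 1), with 1 point a gene and dashed lines at a 4-fold difference. The 2046 genes higher in trachea (blue) and the 2737 higher in stomach (orange) include many on the axes, where the other library is listed at 0, while Trpm5 and Lrmp lie between the lines.

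Whether a gene that differed also belonged to the EGFP cells of its tissue was read from the Tomato library. That library can also hold tuft cells without EGFP, above all in stomach, and their part in these counts was not tested. Of the 2046 genes higher in trachea, 1295 (63.3%) were also 4-fold or more above tracheal Tomato, against 27.6% of all genes. Of the 2737 higher in stomach, 772 (28.2%) were 4-fold or more above gastric Tomato, against 16.0% of all genes. Both measures use the same EGFP value, so a share above that of all genes is built in and nothing is read from it. Another 1720 genes higher in stomach were within 4-fold of gastric Tomato and 245 were 4-fold or more below it. In 623 genes EGFP exceeded Tomato in both tissues by 4-fold. Of these, 174 were higher in trachea, 96 were higher in stomach, and 198 lay within 2-fold between the tissues, the ones described below as shared.

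Of 38 taste receptor genes, 10 reached the minimum and all 10 were higher in tracheal EGFP cells, with a median log2 difference of 7.0 against -0.10 over all genes. In stomach 8 of the 10 were at 0, so these 8 reached the minimum through trachea only. Tas2r108, a bitter receptor, stood at 3402 normalized counts in tracheal EGFP cells and was listed at 0 in the other libraries. Another 7 bitter receptors ranged from 60 to 626, namely Tas2r105 (626), Tas2r138 (398), Tas2r106 (272), Tas2r118 (130), Tas2r115 (124), Tas2r136 (122) and Tas2r135 (60). These 7 were likewise at 0 in gastric EGFP cells and in both Tomato libraries. A pair of receptors was present on both sides. Tas2r126 was at 746 in trachea and 82 in stomach, 9.1-fold apart (interval 7.35 to 11.4), with 0 and 20 in tracheal and gastric Tomato. Tas1r3, the subunit common to the sweet and umami receptors, was at 2396 and 271, 8.84-fold apart (7.85 to 9.95), and at 0 in both Tomato libraries. Tas2r143, whose promoter drives the recombinase, was at 2 in tracheal and 1 in gastric EGFP cells, about the worth of 1 read each. Of the 28 receptors below the minimum, 23 were at 0 in both EGFP libraries and the highest was Tas2r110 at 37 in trachea.

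The signalling chain behind the receptors was largely common to both tissues. Of 18 taste transduction genes at the minimum, 4 were higher in trachea and none in stomach, against 20.2% and 27.0% of all genes. The other 14 were neither. The 4 were Gnb3 (a G-protein beta subunit), Rgs21 (a regulator of G-protein signalling) and the subunits Calhm1 and Calhm3 of the channel through which taste cells release ATP. Gnb3 stood at 103352 in tracheal and 13 in gastric EGFP cells, with 3053 and 0 in tracheal and gastric Tomato. Rgs21 at 1167, Calhm3 at 638 and Calhm1 at 570 in trachea were listed at 0 in the other 3 libraries. In contrast, Gnb1, the other beta subunit of the list, was at 148833 and 166946.

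Gustducin (Gnat3) was at 13865 in tracheal and 3685 in gastric EGFP cells, 3.76-fold apart (3.63 to 3.9) and just under the 4-fold rule, and Gng13, the gamma subunit that pairs with it, was at 5721 and 2506. The phospholipase Plcb2 was at 1575 and 438, and Itpr3, the IP3 receptor downstream of it, at 1032 and 260. These ratios of 3.6 and 3.97 did not pass the rule, although Gnat3, Plcb2 and Itpr3 all passed it when both libraries were set to the same total. Trpm5, the cation channel at the end of the chain, was at 21065 and 14548, 1.45-fold apart (1.42 to 1.48), with 265 and 376 in tracheal and gastric Tomato. Lrmp, an endoplasmic reticulum protein that associates with the IP3 receptor, was at 109136 and 59729. The remaining regulators leaned to stomach without passing the rule, with Rgs13 at 17643 and 38751 and Rgs2 at 14545 and 26986.

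Of 24 receptors for metabolites and purines, 6 reached the minimum, and of these 4 were higher in trachea and none in stomach. The 4 reached the minimum through trachea only, so their direction was largely set by that rule. The median log2 of the list was 6.62, and 1.8 over the genes left at a minimum of 500. The succinate receptor Sucnr1 was at 1113 in tracheal EGFP cells and at 0 in the other 3 libraries. The niacin receptor Hcar2 (195 and 0), the long-chain fatty acid receptor Ffar4 (180 and 0) and the nucleotide receptor P2ry2 (267 and 4) were also higher in tracheal EGFP cells, but each was higher still in tracheal Tomato, at 664, 218 and 349. Only Sucnr1 among the 4 thus exceeded the Tomato background of its tissue by 4-fold. Of the 18 receptors below the minimum, Ffar3, a short-chain fatty acid receptor, was highest, at 31 in stomach and 0 in trachea.

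**Figure D2:**
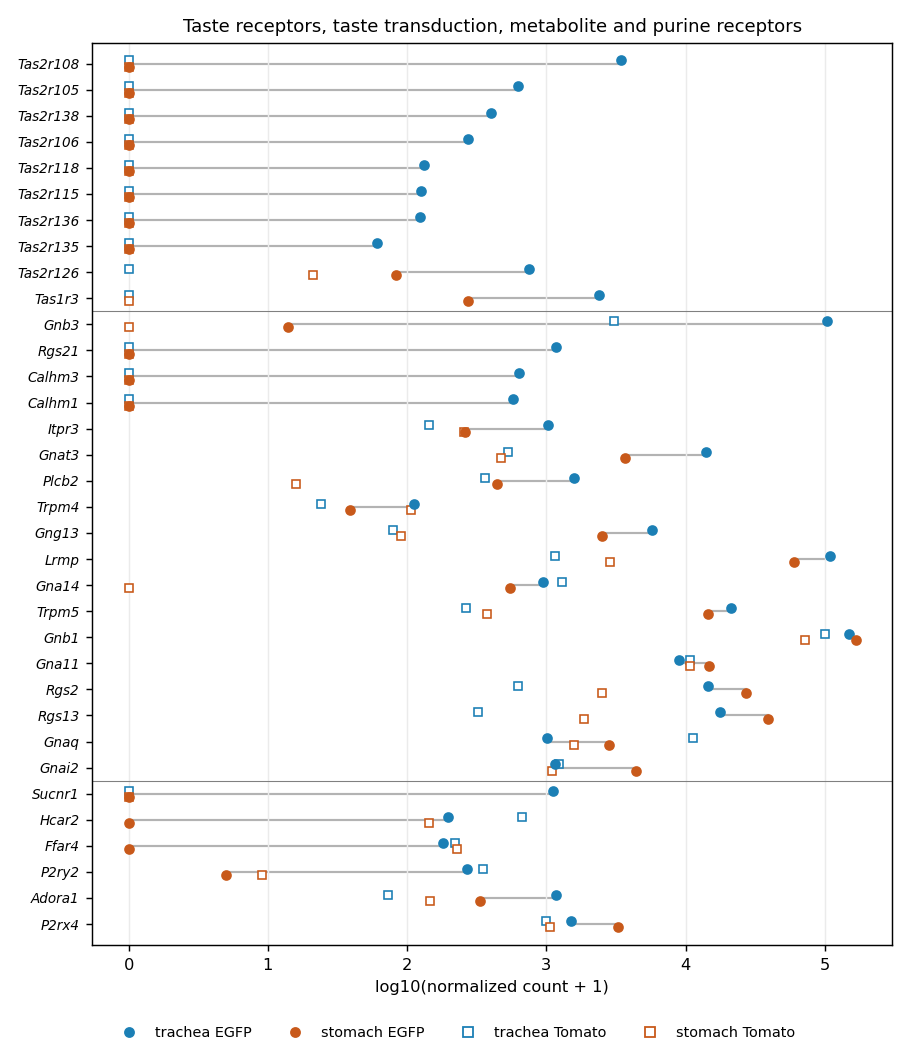
Levels of the taste receptors (top), taste transduction genes (middle) and metabolite and purine receptors (bottom) at the minimum, as log10(normalized count + 1), in the EGFP (filled circles) and Tomato (open squares) libraries of trachea (blue) and stomach (orange), with a grey line joining the EGFP libraries. Most taste receptors sit at 0 in gastric EGFP cells, but Tas2r126 (82) and Tas1r3 (271) do not, while Trpm5 and Gnb1 are close together.

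Cytokine genes were called in both directions. Il25, the tuft cell cytokine that activates innate lymphoid cells, was at 4608 in tracheal and 359 in gastric EGFP cells, 12.8-fold apart (11.6 to 14.2), and at 0 in both Tomato libraries. Il7, a lymphocyte growth factor, was at 589 and 24 and also at 0 in both Tomato libraries. Tslp, an epithelial cytokine of type 2 immunity, was at 192 and 1, with 17 and 60 in tracheal and gastric Tomato. The interleukin 1 receptor antagonist Il1rn was at 414 and 0, with 154 and 821 in Tomato, and the receptor gene Il6ra at 101 and 11, with 722 and 62. Of 21 cytokine and receptor genes at the minimum, 5 were higher in trachea and 6 in stomach. These numbers were close to the shares of all genes, 20.2% and 27.0%, so no trait of the list is read from them. Those higher in stomach were the alarmin Il33, Tnf and the receptor genes Il1r1, Il17rc, Il17re and Il2rg, and none of the 6 exceeded gastric Tomato by 4-fold. Il17rb, the receptor for Il25, was near-equal at 985 and 819, with 0 and 48 in Tomato.

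Chat, which makes acetylcholine, was at 1137 in tracheal and 75 in gastric EGFP cells, 15.2-fold apart (12.3 to 19.1), with 162 and 0 in tracheal and gastric Tomato. Its list of 7 held 1 other gene higher in trachea, the choline transporter-like gene Slc44a2 (440 and 85), and none higher in stomach. Over all genes the shares were 20.2% and 27.0%. Slc44a2 was below Tomato in both tissues, at 1180 in tracheal and 709 in gastric Tomato. Slc44a4, another choline transporter-like gene, was at 4715 and 1271, 3.71-fold apart. The vesicular acetylcholine transporter Slc18a3 and the high-affinity choline transporter Slc5a7 were at 0 in all 4 libraries.

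The enzymes at the head of lipid mediator synthesis were present on both sides. Alox5 (11771 in tracheal and 18046 in gastric EGFP cells), its activating protein Alox5ap (7462 and 16819) and the leukotriene C4 synthase Ltc4s (7363 and 8054) did not pass the rule, nor did the cyclooxygenase Ptgs1 (5977 and 11233). The branch enzymes differed. Hpgds, the haematopoietic prostaglandin D2 synthase, was at 549 and 5529, 10.1-fold higher in stomach (9.03 to 11.3), with 346 and 471 in tracheal and gastric Tomato. Hpgd, which inactivates prostaglandins, was at 151 and 3049, with 2171 and 1023 in Tomato. Lta4h, which makes leukotriene B4, was at 23 and 425, with 278 and 1075. The leukotriene C4 exporter Abcc1 was higher in trachea (812 and 112, with 138 and 252 in Tomato). So was Ptges2, a prostaglandin E synthase (921 and 131, with 1158 and 381). Hpgds and Abcc1 exceeded Tomato by 4-fold in the tissue where they were higher, and Hpgd, Lta4h and Ptges2 did not. In all, 2 of the 14 genes were higher in trachea and 4 in stomach, the fourth being Ptgds (0 and 55). Over all genes the shares were 20.2% and 27.0%.

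**Figure D3:**
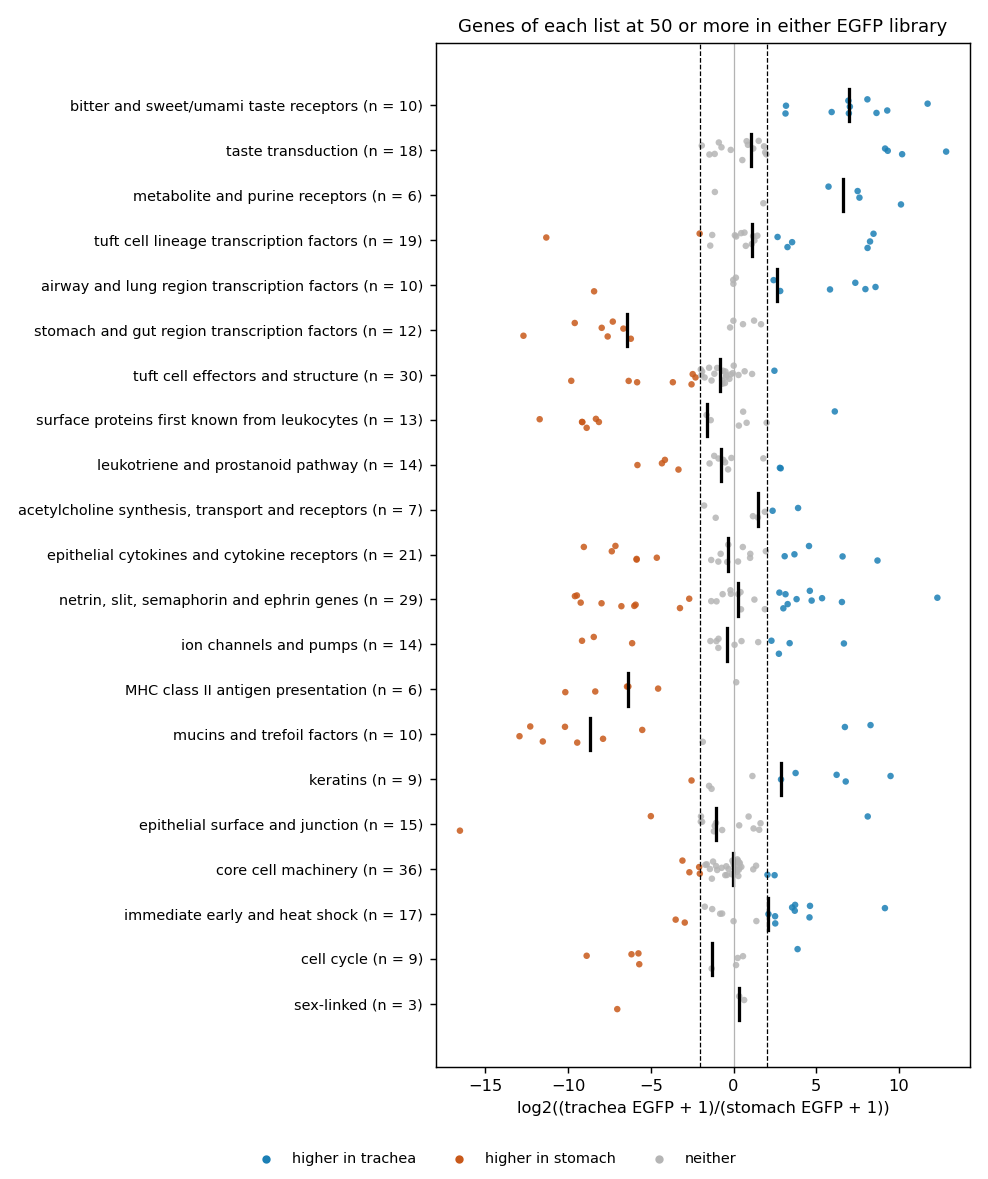
log2((trachea EGFP + 1)/(stomach EGFP + 1)) of the genes of each list at the minimum (x axis), 1 row a list, 1 point a gene, coloured by call, with a black bar at the median of the list and dashed lines at the 4-fold rule. Taste receptors (median 7.0) lie to the right, stomach and gut region factors (median -6.43, or 0.57 over the genes left at a minimum of 500) and mucins (median -8.67) to the left, and core cell machinery (median -0.04) in the centre.

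Transcription factors were read in separate lists for the tuft lineage and for the organ regions. Pou2f3, the factor on which tuft cells depend, was at 4148 in tracheal and 2484 in gastric EGFP cells, against 300 and 105 in tracheal and gastric Tomato. Sox9 was nearly equal at 38269 and 36316, as was Nfatc1 at 1143 and 1020, while Spib was at 3104 and 8271 and Ascl2 at 831 and 386. 1810046K07Rik, which encodes a coactivator of Pou2f3, was at 14801 and 6173. Of 19 lineage factors at the minimum, 6 were higher in trachea and 2 in stomach, against 20.2% and 27.0% of all genes. The other 11 did not pass the rule, nor did 5361 of all 10144 genes, so no shared group is read from this count.

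Gfi1b, a zinc finger repressor known from gut tuft cells and blood, stood apart. It was at 2547 in gastric EGFP cells and 158 in gastric Tomato, and listed at 0 in both tracheal libraries. Hmx2, a homeobox factor, was also higher in stomach, at 1199 against 288, a ratio of 4.16 (3.56 to 4.88) that did not pass with both libraries at the same total. The 6 factors higher in trachea were Etv1 (5191 and 16), Runx1 (5397 and 854), Nfatc2 (704 and 1), Tead2 (274 and 0), Gm684 (861 and 89) and Nr4a1 (626 and 53). Etv1, Runx1 and Nfatc2 also exceeded tracheal Tomato (341, 232 and 2), as did Tead2 (0). Gm684, the second coactivator of Pou2f3, and Nr4a1, an immediate early gene, were higher in tracheal Tomato, at 1495 and 2945.

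Factors of the organ regions differed in the direction of their own organ in most cases. Of 12 stomach and gut factors at the minimum, 7 were higher in stomach, and all 7 were listed at 0 in tracheal EGFP cells. Gata6 stood at 6655, Hnf4a at 775, Foxa3 at 250, Gata5 at 157, Gata4 at 100 and Bhlha15 at 73. None of these 6 exceeded gastric Tomato by 4-fold, which held them at 4122, 822, 692, 102, 727 and 324. The 5 others were present on both sides, among them the epithelial factors Elf3 (17351 and 11704), Klf4 (3581 and 1520) and Klf5 (1245 and 394). Of 10 airway factors, 6 were higher in trachea (Six4 and Grhl2 among them) and 1, Tbx3 (0 and 345), in stomach. Nkx2-1, which specifies lung and trachea, was at 250 and 0 with 123 in tracheal Tomato, Hoxa5 at 382 and 0 with 2, and Sox2 at 56 and 0 with 315. Hoxa5 was thus the 1 of these 3 that tracheal EGFP cells held 4-fold above Tomato.

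**Figure D4:**
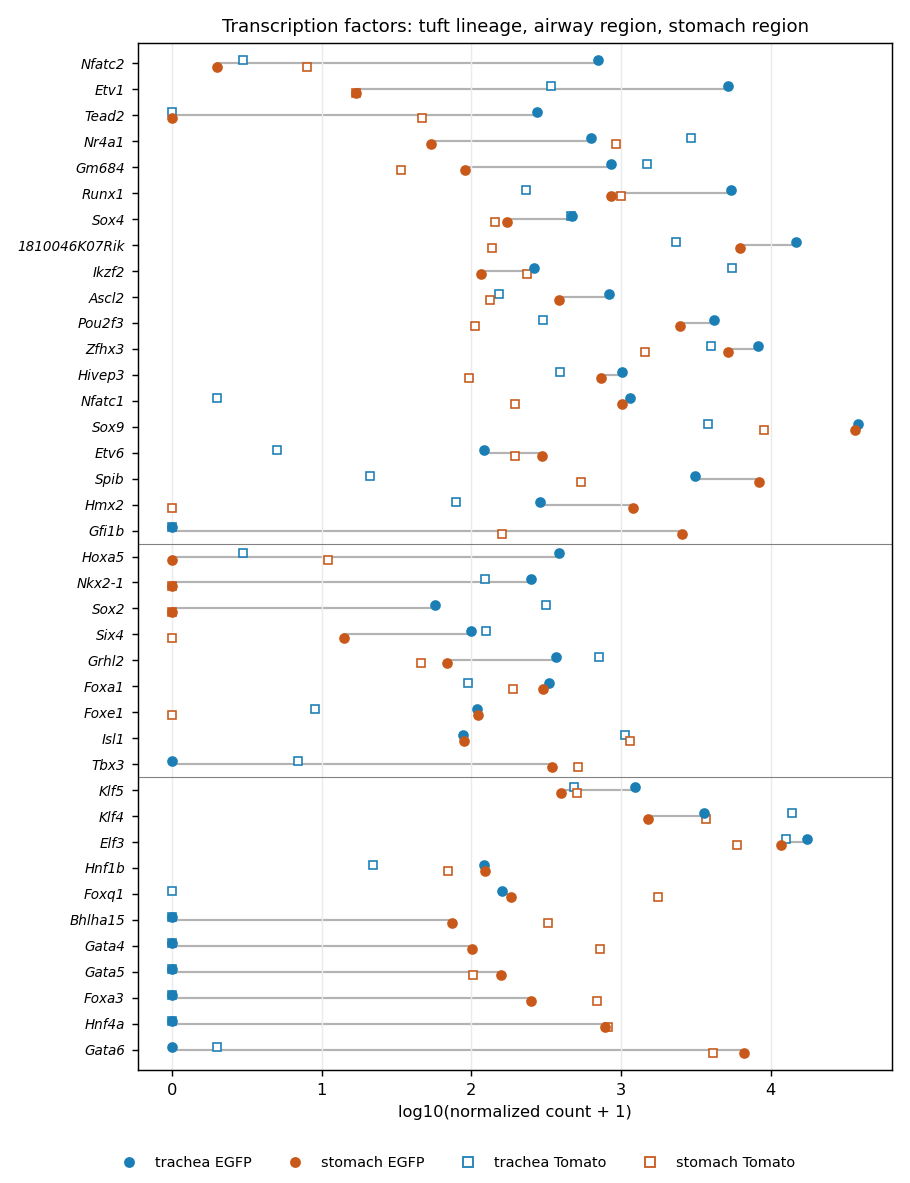
Levels of the tuft lineage (top), airway region (middle) and stomach region (bottom) transcription factors at the minimum, as log10(normalized count + 1), in the EGFP (filled circles) and Tomato (open squares) libraries of trachea (blue) and stomach (orange), for the factors reported here. Sox9 is near-equal in both EGFP libraries and Pou2f3 within 2-fold, Gfi1b is seen in the stomach libraries only, and the lowest 6 genes are at 0 in tracheal EGFP cells.

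The 10 shared genes with the highest normalized counts, which are not divided by gene length, were alike in both tissues by their definition. Besides Lrmp, Sox9 and Trpm5 they included Enc1 (50668 in tracheal and 72430 in gastric EGFP cells), Plac8 (38002 and 38018), Anxa4 (43665 and 28775), the actin-bundling protein advillin, Avil (19477 and 27919), the acyl-CoA synthetase Acsl4 (19335 and 24336) and Ivns1abp (23881 and 17959). Each exceeded the Tomato library of both tissues by 4-fold. Avil, for example, was at 107 in tracheal and 2598 in gastric Tomato.

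Of 30 tuft effector and structural genes at the minimum, 22 did not pass the rule, 1 was higher in trachea and 7 in stomach, with a median log2 of -0.84. Vav1 (6787 and 7021), Bmx (4415 and 4372), Sh2d6 (10573 and 12535) and Ptpn6 (13609 and 21888) lay within 2-fold, whereas Fyb (5048 and 18816) and Plcg2 (771 and 2597) leaned to stomach without passing the rule. The kinase Matk was the gene higher in trachea (10529 and 1893). Dclk1, the microtubule-associated kinase by which tuft cells are usually stained, was at 6888 in trachea and 33844 in stomach, 4.91-fold apart (4.76 to 5.07), against 86 and 2049 in tracheal and gastric Tomato. The glycoprotein Cd24a was at 10988 and 139497, and villin, Vil1, a core protein of brush border microvilli, at 42 and 3482, 82.9-fold apart (56.7 to 127). The alcohol dehydrogenase Adh1 differed most of the list among genes detected on both sides, at 140 and 126534, with 6058 and 7840 in tracheal and gastric Tomato, so that it was below Tomato in trachea and above it in stomach. Rac2, Krt23 and Trim38 made up the 7.

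Surface proteins first known from leukocytes were higher in stomach in 6 of 13 cases and in trachea in 1. Siglecf, a sialic acid-binding receptor of eosinophils and gut tuft cells, was at 3384 in gastric EGFP cells and 99 in gastric Tomato and listed at 0 in both tracheal libraries. Cd53 (2 and 1693), Cd69 (0 and 570), the integrin chains Itgb2 (0 and 469) and Itgal (0 and 318) and Cd52 (0 and 281) made up the 6. The lectin receptor Clec4a1 was higher in trachea, at 554 and 7. Cd300lf, a lipid-binding receptor known from tuft cells, was present on both sides, at 4562 and 3646, with 0 and 412 in Tomato. Ptprc, the pan-leukocyte protein CD45, was at 338 and 1051. Cd9 (4365 and 1091), a tetraspanin, lay just outside the rule at a log2 of 1.999.

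Plasma cell transcripts were most abundant in the gastric EGFP library. Immunoglobulin segments and Jchain, which were left out of the comparison, made up 12.87% of the gastric EGFP library and 0.35% of the tracheal one, against 0.55% and 0.02% of the respective Tomato libraries. Of 10 B and plasma cell markers, 8 reached the minimum and 5 were higher in stomach, among them Mzb1 (0 and 1848) and Cd79a (0 and 791). The other 3 did not pass the rule, among them Cd79b (1386 and 2855, with 1 and 2 in Tomato) and Xbp1 (1942 and 1775, with 765 and 1756). The list summed to 631.1 normalized CPM in gastric and 353.1 in tracheal EGFP cells, with 1 and 7 of its genes at 0. In gastric and tracheal Tomato it summed to 208.3 and 431, so in trachea the sum was lower in EGFP cells than in Tomato. All 11 T and innate lymphoid markers were at 0 in gastric EGFP cells, and 11 of the 12 myeloid markers were. The part of plasma cells in the leukocyte surface and MHC class II values of the gastric library was not tested. Of 6 MHC class II genes at the minimum, 5 were higher in gastric EGFP cells, such as the invariant chain Cd74 (5 and 1973) and Ctss (0 and 1150), but H2-Ab1 was at 372 and 332, and Cd74 was higher in both Tomato libraries, at 6144 in trachea and 7105 in stomach.

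Guidance genes split both ways. Of 29 netrin, slit, semaphorin and ephrin genes at the minimum, 10 were higher in trachea and 9 in stomach. Over all genes the shares were 20.2% and 27.0%, so a split is not particular to this list. Unc5d, a netrin receptor, was at 5117 in tracheal EGFP cells and at 0 in the other 3 libraries. Another netrin receptor, Unc5b (1008 and 124), the ligand netrin 1, Ntn1 (341 and 13), and the Eph receptors Ephb6 (1708 and 41), Ephb3 (367 and 13) and Epha1 (238 and 16) were higher in trachea as well, although Ephb3 was at 3269 in tracheal Tomato. In stomach, the semaphorins Sema4a (0 and 768) and Sema4g (0 and 709) and the ephrin Efnb1 (0 and 605) led the list. Sema4g exceeded gastric Tomato (18) by 4-fold, and Sema4a (423) did not.

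Among 14 ion channel and pump genes, the potassium channel subunit Kcnq1 (1998 and 409), the calcium channel subunit Cacna1a (261 and 24), Panx1 (333 and 49) and Kcnh2 (101 and 0) were higher in trachea. Kcnn4 (0 and 572), Kcnk5 (0 and 348) and Kcne2 (0 and 69), all potassium channel subunits, were higher in stomach. Over all genes, 20.2% were higher in trachea and 27.0% in stomach. Atp2a3, a calcium pump of the endoplasmic reticulum, was nearly equal at 11629 and 11155, with 367 and 896 in tracheal and gastric Tomato.

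Of 9 keratins at the minimum, 5 were higher in trachea and 1, Krt23, in stomach. Krt8 (20374 and 56723) and Krt18 (79635 and 199950), the keratins of simple epithelia, were lower in trachea but did not pass the rule, whereas Krt19 was 13.4-fold higher in trachea (27306 and 2033). Krt10 was at 233 and 31. Krt15 (1436 and 1), Krt5 (109 and 0) and Krt17 (74 and 0) were higher in tracheal EGFP cells, yet tracheal Tomato held them at 108030, 18168 and 79085. Epcam was at 5871 and 4648. Of 15 surface and junction genes, 12 did not pass the rule. Cldn18, a claudin with a gastric isoform, was at 95215 in gastric EGFP cells, 47299 in gastric Tomato and 0 in tracheal EGFP cells. Cldn4 was at 828 in trachea and 2 in stomach, and Tjp1, a scaffold of tight junctions, at 6 and 223. Of 10 mucins, trefoil factors and gastrokines, 7 were higher in stomach and 2, Muc5b (105 and 0) and Muc20 (309 and 0), in trachea. The membrane mucin Muc13 was at 1168 in gastric EGFP cells, 35 in gastric Tomato and 0 in trachea, and so exceeded Tomato, whereas the secreted products Muc5ac (0 and 697), Tff1 (0 and 2965) and the gastrokines were higher in gastric Tomato. Muc1 (269 and 12422) was at 9405 in gastric Tomato.

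The genes furthest apart included abundant products of the neighbouring epithelium that were higher still in Tomato. In trachea these were Bpifa1 (44284 and 1 in tracheal and gastric EGFP cells, 882310 in tracheal Tomato), Cyp2f2 (8937 and 0, with 337775) and Cbr2 (4900 and 0, with 88245), all products of airway secretory cells. In stomach they were the chitinase Chia1 (23 and 189673, with 2055085 in gastric Tomato), the gastrokines Gkn1 (10 and 55128, with 468388) and Gkn2 (5 and 47114, with 375687), the intrinsic factor gene Gif (0 and 6994, with 89704) and Lgals2 (0 and 6042, with 43523). Others lay within 4-fold of gastric Tomato, such as the mucin glycosyltransferase Gcnt3 (2 and 41814, with 36711), the carbonic anhydrase Car2 (0 and 16542, with 55240), Mbnl3 (0 and 4882, with 2066) and Habp2 (0 and 4440, with 3504). In normalized CPM, the club cell list summed to 6405 in tracheal EGFP cells and 95500 in tracheal Tomato, with 7 of 9 genes at the minimum higher in tracheal EGFP cells. The pit cell list summed to 8598 and 64770 in gastric EGFP cells and gastric Tomato, and the chief cell list to 17370 and 203400. All 7 pit cell genes and 5 of 6 chief cell genes were higher in gastric EGFP cells, the exception being Lipf (924 and 0, with 53408 in tracheal Tomato). All 3 ciliated cell genes at the minimum and 3 of 4 basal cell genes were higher in trachea, with sums of 163.7 and 269.6 against 377.9 and 13760 in tracheal Tomato. Among 5 parietal cell genes Atp4b (0 and 2953), Hgfac and Kcne2 were higher in stomach and Kcnq1 in trachea, among 2 neck cell genes Glipr1 (56 and 390) was higher in stomach, and of the enteroendocrine genes Sst (0 and 718) was, with 39647 in gastric Tomato. Fewer cells of a type and less RNA per cell cannot be told apart in such sums, and their part in the counts of genes higher on either side was not tested.

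**Figure D5:**
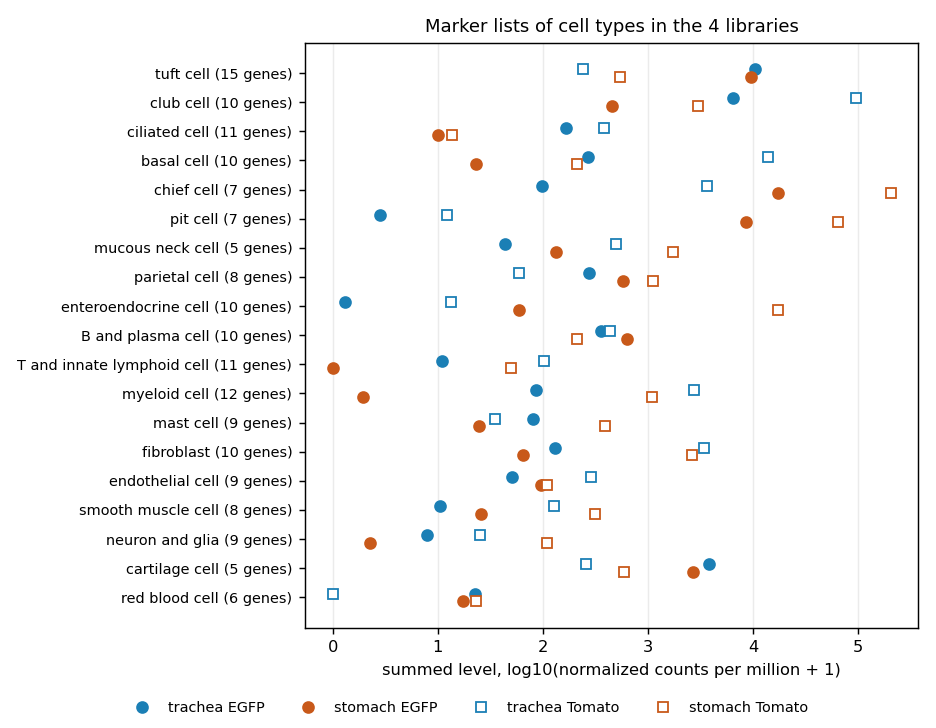
Summed level of each cell type marker list in the 4 libraries (x axis), as log10(normalized CPM + 1), for EGFP (filled circles) and Tomato (open squares) cells of trachea (blue) and stomach (orange). Tuft cell markers stand at 10500 and 9498 normalized CPM in the EGFP libraries, while club, chief and pit cell markers are highest in the Tomato library of their own organ. The cartilage list holds Sox9, which gives its level here.

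Of the markers of other non-epithelial cells, the T cell marker Cd3g (98 and 0), the myeloid markers Lyz2 (470 and 0), Cd14 (325 and 0) and Cd68 (55 and 13) and the fibroblast marker Dcn (444 and 52) were higher in tracheal EGFP cells, and each myeloid and fibroblast gene of these was higher in tracheal Tomato. Col1a1 (0 and 86), the endothelial genes Emcn (0 and 410) and Egfl7 (0 and 119), the smooth muscle gene Tagln (0 and 116) and the haemoglobin genes Hba-a1 (0 and 52) and Hbb-bs (0 and 95) were higher in stomach. The mast cell gene Kit (784 and 322) and the glial gene S100b (66 and 17) did not pass the rule.

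Other leading genes exceeded Tomato by 4-fold. In trachea the protein-coding genes of this kind, besides Gnb3, Unc5d and Tas2r108, included the doublesex-related factor Dmrt2 (6905, with 348 in tracheal Tomato), Prune2 (6653, with 5), the neuronal transmembrane protein Slitrk6 (3879, with 121), the potassium channel-family gene Kcnk7 (3464, with 0) and the neurotrophin Bdnf (2190, with 0). All 5 were listed at 0 in gastric EGFP cells. In stomach, besides Siglecf and Gfi1b, they were the protease inhibitor Serpinb1a (11719, with 2276 in gastric Tomato), Pate4 (6952, with 145), Plekhs1 (4194, with 176), Ms4a8a (4188, with 78), the carboxypeptidase Cpm (3695, with 245), the adaptor Dok2 (3329, with 64), the sodium channel-family gene Scn7a (3301, with 279), Eps8l3 (2897, with 692), Fcna (2605, with 148), Trp53inp1 (2491, with 312), Hgfac (2308, with 303) and the sugar transporter Slc2a10 (2160, with 461), all at 0 in tracheal EGFP cells. Cdhr2, a protocadherin that links brush border microvilli, was at 10773 in stomach and 2 in trachea, with 683 in gastric Tomato.

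Gene types differed in how often they were called. Of 148 lincRNA genes 59.5% were higher in trachea and 23.6% in stomach, and of 111 antisense genes 55.0% and 25.2%, while 134 genes to be experimentally tested gave 41.8% and 37.3%, 113 processed transcripts 34.5% and 35.4%, and the 9468 protein-coding genes 18.3% and 27.0%. The pseudogene Gm15662 (9399 and 3) was at 0 in both Tomato libraries. The leading tracheal genes also held noncoding or experimentally untested transcripts, and the 4 given here were at 0 in gastric EGFP cells and in both Tomato libraries. Gm44235 (4821; chr6:77471138-77474195, minus strand, GRCm38, GENCODE M21) and Gm44288 (2683; chr6:77692979-77695773, minus strand) both lie within introns of Ctnna2 on its own strand, and Ctnna2, a catenin of neurons, was itself at 657 in tracheal EGFP cells and 0 in the others. Gm44937 (3307; chr7:58720199-58722889, plus strand) lies in an intron of Atp10a, which was at 14. Gm16579 (5631; chr5:86728899-86759736, plus strand) overlaps an exon of Tmprss11e on the opposite strand. Reads that overlapped several genes were left out by the authors, so the values of overlapping genes cover only part of them. Ctnna2, Atp10a and the 2 genes that follow were chosen after their values were seen, as neighbours of leading genes. P3h3, next to Gnb3, was at 169 and 0, and 2610016A17Rik, beside Dmrt2, was at 1076 and 0.

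Other gene groups bear on how far the libraries can be compared. Of 36 core machinery genes, 30 did not pass the rule and the median log2 was -0.04, but the lowest stood at -3.09. Of the 2 higher in trachea Vcp was at 2381 and 573, and of the 4 higher in stomach Cltc was at 615 and 5249, Polr2a at 150 and 962, Psmc4 at 734 and 3111 and Psma1 at 639 and 2626, the last pair not with both libraries at the same total and Vcp not after scaling by the median of ratios, so differences near 4-fold also occurred among genes that every cell uses. Genes at 200 or more in the 3 other libraries were listed at 0 in the tracheal EGFP library in 102 of 3453 cases (2.95%) and in the gastric EGFP library in 9 of 3148 (0.286%). Serpinb1a and Clu, named or leading on the stomach side, were among the 102.

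Immediate early genes leaned to trachea. Fos was at 13693 in tracheal and 556 in gastric EGFP cells and at 62889 and 8386 in tracheal and gastric Tomato, and Junb, Jun, Ier2, Atf3, Fosb, Zfp36, Egr2 and Nr4a1 also passed the rule in EGFP cells. Of 17 immediate early and heat shock genes, 9 were higher in trachea, and the heat shock genes Hspa1b (39 and 308) and Hsph1 (21 and 248) were higher in stomach. The digestion protocols differed between the tissues, and their part in these genes was not tested. Cell cycle genes were low, with 9 of 18 at the minimum. Top2a (0 and 471), Cdk1 (0 and 53), Mcm6 (2 and 215) and Rrm2 (0 and 51) were higher in stomach and Stmn1 (512 and 34) in trachea, while Pcna was at 338 and 285. The Y-linked genes Ddx3y (1436 and 918) and Eif2s3y (3116 and 2454) did not pass the rule, Uty (2 and 390) was higher in stomach, and Xist was at 0 in all 4 libraries.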

How the data were processed

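Sorted EGFP-positive and Tomato-positive cells of trachea and stomach were pooled from 3 mice for each of the 4 libraries, and cDNA was made with the SMART-Seq v4 low-input kit. The labels give the RNA input in both ng and pg, so it is not stated here. Per the study's methods and the submitters' processing notes, reads were aligned to GRCm38 with STAR 2.4.0a and counted per gene with featureCounts 1.4.5-p1, with multi-mapping and multi-gene reads left out. The deposited signal is a normalized count, which the authors obtained by dividing read counts by a factor for each library and rounding. The derivation of these factors is not given in the sources read for this work.

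The file holds 48709 lines. For the 116 symbols on several lines the line with the highest sum was kept, and 193 immunoglobulin lines at the minimum were left out. Differences are log2((trachea + 1)/(stomach + 1)) over genes at 50 or more in either EGFP library. This scale understates the change of low genes. All 37 mitochondrial lines are at 0. Of the 10144 genes, 10132 matched GENCODE M21 by ID. Levels are not divided by gene length, so they are compared between libraries and not between genes.

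Named genes were 5 markers given for the comparison, the 15 genes furthest in each direction at 200 or more in the higher library, the same 15 among genes 4-fold over Tomato, the 10 most abundant shared genes, and all members at the minimum of 21 gene lists and up to 4 of each of 19 marker lists. Some of these genes are not reported here singly and remain in the counts. Any other named gene is said to be chosen after its values were seen, or is below the minimum and given for completeness. The comparison, the lists and the rules were chosen with earlier results of these data known, so no list is independent evidence of a direction. Calculations used Python 3.11.15, numpy 2.4.6, pandas 2.3.3 and scipy 1.17.1, and the scripts were tested on simulated data. Alternatives were other pseudocounts, minimums, folds and scalings, summed repeated symbols and, added after the data were seen, genes at 0 in the lower library left out.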

Additional observations from a re-analysis of the deposited data

Results flagged for a closer look

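In 6 of the genes named for their distance between the tissues, the EGFP cells stood on opposite sides of Tomato in trachea and stomach, each by 4-fold or more. The difference between the tissues was not tested, since there was 1 library a group. As log2((EGFP + 1)/(Tomato + 1)), Bdnf was 11.1 in trachea and -5.61 in stomach, Prune2 was 10.12 and -11.7, and Slitrk6 was 4.99 and -3.81. Prune2, for example, was at 6653 in tracheal EGFP cells and 5 in tracheal Tomato, and at 0 in gastric EGFP cells and 3337 in gastric Tomato. In the other direction, Serpinb1a was -11.25 in trachea and 2.36 in stomach, Slc2a10 was -5.81 and 2.23, and Trp53inp1 was -4.17 and 2.99. Over all 10144 genes the first pattern held in 369 and the second in 327, so it was not particular to the genes named. Each of the 6 was listed at 0 in 1 EGFP library, so that its value on that side rests on a 0.

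Immunoglobulin segments and Jchain, which were left out of the comparison of genes, were above the Tomato background in both EGFP libraries. They made up 0.35% of the tracheal EGFP library, against 0.02% of tracheal Tomato, and 12.87% of the gastric EGFP library, against 0.55% of gastric Tomato.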

How the results depend on the processing

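No paired analysis was possible because each group holds 1 library and no test was run, and for the same reason no replicate could be left out. With 2046 genes higher in trachea, 2737 in stomach and 198 shared, a minimum of 500 gave 844, 801 and 120, so that 51.3% of the genes called were then higher in trachea, against 42.8%. Without a minimum, 4888 genes were higher in stomach. Leaving out genes at 0 in the lower library gave 1449 in stomach and 1513 in trachea. The other settings kept each count within 1.5 times, and setting both libraries to the same total, which shifts the log2 ratio of genes well above 0 by 0.256, gave 2283 and 2559. Of the medians of 33 lists, 29 had a value at a minimum of 500, where with fewer genes left those of the stomach and gut region factors (0.57) and keratins (-0.09) changed sign, as did the cell cycle and fibroblast lists with 1 gene left in each. The median of core cell machinery went from -0.04 to 0.22 at the same total. Of 388 named genes none called higher on 1 side changed direction, and 14 uncalled ones changed sign at the same total and 4 after scaling by the median of ratios, all within 0.25 of 0. The same total changed the call of 13, Gnat3, Plcb2 and Itpr3 among them. Depth limits the tracheal EGFP library most, at an estimated 6.2 M reads.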
